A study of Mus musculus with 10 samples.

Results

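The Six-family, Eya and Pax genes encode transcription factors and cofactors that act upstream of the myogenic regulatory factors. The members described here are 9 mouse genes, chosen by gene symbol from the 55359 genes of the deposited table: the Six-family homeodomain genes Six2, Six4 and Six5, the Eya coactivator genes Eya1, Eya2, Eya3 and Eya4, and the paired box genes Pax3 and Pax7. RNA-seq was performed on C2C12 cells, an established mouse myoblast line that fuses into myotubes when serum is lowered. Both groups received 100 nM siRNA and were then kept in differentiation medium with 2% horse serum, for 4 days by the sample labels, whereas the series' own text names a harvest after transfection at another time. The si-Control group received a control siRNA and the si-Fndc1 group an siRNA against Fndc1, which encodes a secreted fibronectin type III domain protein, and each group has 5 libraries. No source used here states that the 5 libraries of a group are separate cultures, so p-values measure the spread between these libraries, which may be technical.

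Six-family proteins bind DNA through a homeodomain and act on muscle genes through MEF3 elements. Eya proteins do not bind DNA themselves but join Six-family proteins as coactivators and carry a phosphatase domain, while Dach proteins and Sobp are further cofactors of the network. Pax3 acts in embryonic muscle progenitors and Pax7 marks satellite cells, the stem cells of adult muscle, and both act upstream of Myf5 and Myod1. In differentiation, progenitor factors give way to Myog and the structural genes of the myotube.

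MEF3 elements share the core TCAGGTT, which was searched on both strands in the RefSeq promoter windows of build GRCm38.p6, each running from 250 bases before to 50 bases after a gene's start. The core was present in 1337 of 32851 windows (4.07%). Among the members, 6 of the 9 genes had 8 windows together, and 1 of the 8, at Six4, held the core. Among 9 genes described as Six-family targets in muscle, 6 had 9 windows together, and 1 of the 9, at Myog, held it. Among 8 genes described as Pax3 or Pax7 targets, 6 had a window and 0 held it. Both stretches are shown because they are the places where the known binding letters of the Six-family proteins meet a member or a target measured below. They are written in the direction of the gene, with the core in capitals. Their GRCm38.p6 positions cannot be set against the gene coordinates given below, which are of another build.
Myog, chr1:134289909-134289938, plus strand: tagaggggggcTCAGGTTtctgtggcgttg
Six4, chr12:73113324-73113353, minus strand: ggcctgggggaAACCTGAtcggccagatcc
The Myog core begins 84 bases before the gene's start and reads in the direction of the gene. The Six4 core begins 97 bases before the gene's start and reads on the opposite strand. A match in letters is a description of the window and does not show binding.

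Total counts ranged from 66771605 to 75995168 in si-Control and from 56332844 to 72839369 in si-Fndc1. Fndc1 itself was at 27.8 ± 2.04 FPKM (fragments scaled to gene length and sequencing depth, SD, n = 5) in si-Control and at 20.9 ± 1.70 FPKM in si-Fndc1, with no overlap between groups (log2 fold change -0.40, SE 0.07, adjusted p = 0.000934 by edgeR's quasi-likelihood test). With GC content and length corrected for, its change was -0.22 on the log2 scale (adjusted p = 0.0104). The si-Fndc1 libraries also differed from si-Control in genes of another cell type, 12 hepatocyte markers. Their summed level was 47.7 to 167.5 FPKM per library against 0 to 6.12 FPKM in si-Control, with Hnf4a at 0.239 FPKM or less. All 11 that passed the minimum level rose, against 17.3% of all tested genes. The minimum is a mean over all 10 libraries, and all of these 11 except Alb had a si-Control mean below it. They passed through their si-Fndc1 levels, so the filter largely fixed that they rose. Fold changes across the table also depended on the GC content and length of the genes, and correcting for both took the called genes from 4244 (37.9%) to 2538 (22.7%) of the 11185 genes that have both values. Corrected values are therefore given beside the fold changes below, and the part of these differences in the members' values was not tested. Both groups carry the same differentiation label and no undifferentiated sample is among them, so a comparison between the groups cannot check the labelled day. All 15 myotube markers examined passed the minimum level. Without the correction 4 rose (Mymk, Ckm, Tnni2 and Mylpf) and 3 fell (Mymx, Ttn and Neb), against 17.3% and 17.2% of all tested genes. With it Des replaced Mymk among the 4 and Myog replaced Ttn among the 3, against 11.3% and 11.4% of genes. The median log2 fold change was -0.05, and 0.07 with the correction. Their summed level was 6519 to 6866 FPKM in si-Control and 6847 to 7626 FPKM in si-Fndc1. Mylpf, the most abundant of the 15, went from a mean of 1971 to 2619 FPKM, so the sum does not describe the markers in general.

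At this stage 6 of the 9 members were measured above a mean of 0.5 FPKM and 3 were near or at 0. Of the 6, 0 passed an adjusted p of 0.05 by edgeR, while 34.4% of all tested genes did. At an unadjusted p under 0.05 the count was 1, Six5, against 44.2% of all genes. DESeq2 and limma each called 1 member, again Six5, against 37.0% and 34.3% of all genes. In 0 of the 6 were the FPKM ranges of the groups apart, against 25.1% of all genes. The median log2 fold change of the 6 was -0.00 and that of all tested genes 0.00. A missed threshold does not show equal levels, so the 95% interval of each fold is given with the gene.

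**Figure D1:**
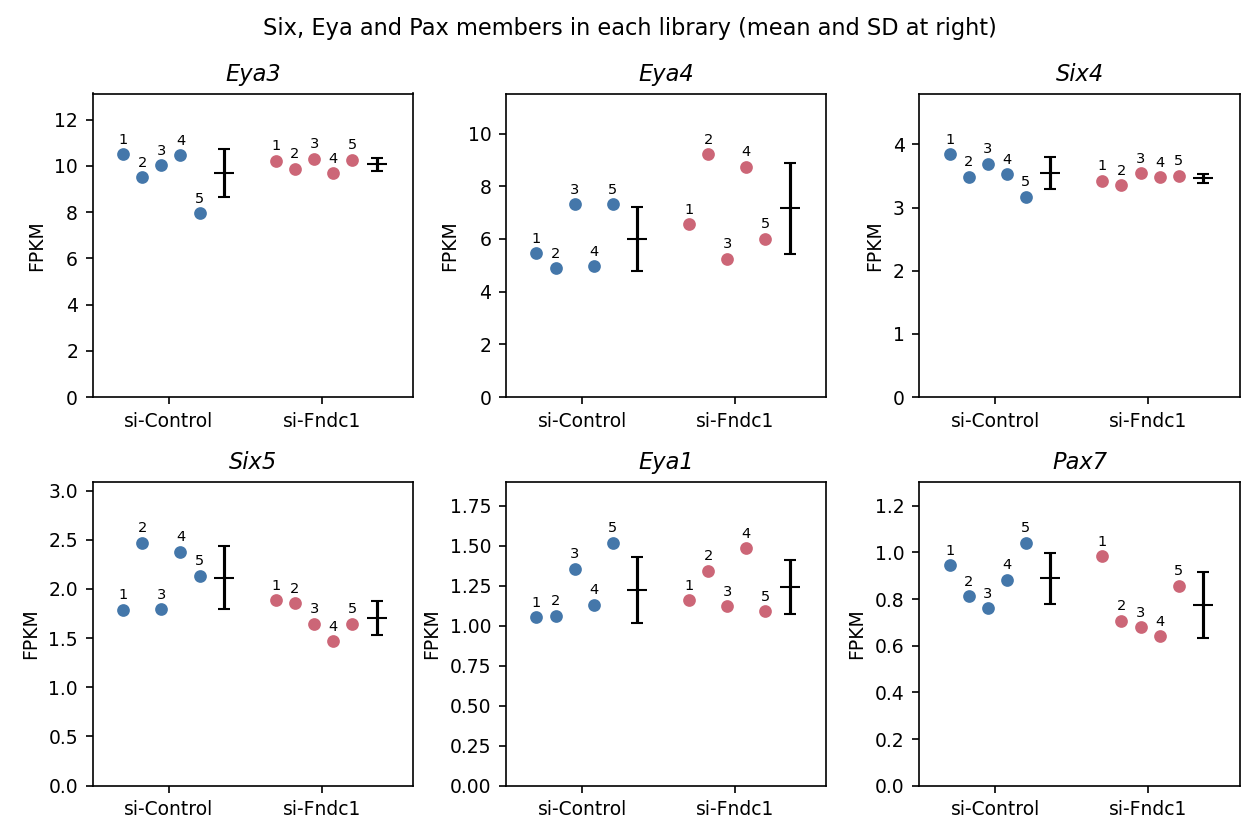
Level in FPKM (vertical axes from 0, a scale of its own in each panel) of the 6 measured members in each library of si-Control and si-Fndc1, numbered by replicate, with the group mean and SD at the right of each group. The groups overlap in every panel, and Six5 shows 3 si-Fndc1 libraries below the lowest si-Control library.

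Six4 lies on the minus strand of chr12:73146383-73160230, in the coordinates that the table lists, and its product works with the other Six-family proteins in the early activation of muscle genes. Its levels in si-Control replicates 1 to 5 were 3.84, 3.49, 3.69, 3.53 and 3.17 FPKM. In si-Fndc1 replicates 1 to 5 they were 3.43, 3.36, 3.54, 3.48 and 3.50 FPKM. All 5 si-Fndc1 libraries lay inside the si-Control range and below its mean, and they were the more closely grouped: 3.55 ± 0.252 against 3.46 ± 0.0716 FPKM (SD, n = 5). The fold was 0.981 with an interval of 0.907 to 1.06 (log2 fold change -0.03, SE 0.05, adjusted p = 0.719, edgeR), and with GC content and length corrected for it was 0.00 on the log2 scale (adjusted p = 0.972). It had the narrowest interval of the 6, and 2376 to 3531 counts per library stood behind it.

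Six5, whose human counterpart is the neighbour of the myotonic dystrophy gene DMPK, was the member with the lowest unadjusted p. It lies on the plus strand of chr7:18828519-18832474. Its si-Control levels in replicates 1 to 5 were 1.79, 2.47, 1.80, 2.38 and 2.13 FPKM. In si-Fndc1 they were 1.89, 1.85, 1.65, 1.47 and 1.64 FPKM. All 5 si-Fndc1 libraries were below the si-Control mean and 3 of them below every si-Control library, while si-Control replicates 1 and 3 lay within the si-Fndc1 range. The means were 2.11 ± 0.318 and 1.70 ± 0.171 FPKM (SD, n = 5; two-sided exact permutation test, p = 0.0476, where 0.00794 is the smallest p that 5 against 5 allows). Without any one of si-Control replicates 2, 4 and 5 or si-Fndc1 replicates 3, 4 and 5, the exact p was 0.0952. The edgeR log2 fold change was -0.30 (SE 0.12, fold 0.810 with an interval of 0.677 to 0.968), and its adjusted p was 0.0654. DESeq2 gave an adjusted p = 0.0479 and limma 0.0416. Without si-Control replicate 1 or 3 the edgeR log2 fold change was -0.36, with an adjusted p = 0.0425 or 0.0443. The gene's GC content is 62.4%, the highest of the 6, and with GC content and length corrected for the change was -0.06 (adjusted p = 0.760).

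Dmpk, which encodes a muscle serine/threonine kinase, ends 772 bases before Six5 on the same strand and was far more abundant. Its si-Control levels in replicates 1 to 5 were 54.2, 50.7, 74.9, 65.0 and 58.4 FPKM, and in si-Fndc1 48.7, 53.0, 47.2, 46.1 and 49.4 FPKM. Dmpk fell by 0.30 on the log2 scale (SE 0.09, edgeR adjusted p = 0.0270), and its corrected value was -0.03 (adjusted p = 0.816). The call of Dmpk was lost without si-Control replicate 4 or without any one of si-Fndc1 replicates 1, 3, 4 and 5. Within si-Control, Dmpk was highest in replicate 3, where Six5 was among its lowest, so the 2 genes did not share an order of libraries there. Within si-Fndc1 both were lowest in replicate 4 (Six5 at 1.47 FPKM), while Six5 was highest in replicate 1 and Dmpk in replicate 2. Meiosin, a meiotic gene on the opposite strand 496 bases beyond Six5, was at a mean of 0.00228 FPKM.

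Six2, a factor best known from kidney progenitors and listed at chr17:85991705-85995702, was near 0. It had 4 counts in si-Control replicate 4 and 0 counts in the other 9 libraries. At this depth 3 counts correspond to 0.0395 to 0.0533 CPM (counts scaled to sequencing depth). A level up to about that value can still give 0 counts in a library. These limits cover counting error only. Among the 3 Six-family members Six4 held 62.7 ± 4.68% of the summed FPKM in si-Control and 67.1 ± 2.56% in si-Fndc1 (SD, n = 5).

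Eya3 was the most abundant member, and its product is known as a phosphatase as well as a Six-family coactivator. It lies on the plus strand of chr4:132366357-132452076. Its si-Control levels in replicates 1 to 5 were 10.5, 9.51, 10.02, 10.4 and 7.95 FPKM. In si-Fndc1 they were 10.2, 9.87, 10.3, 9.68 and 10.3 FPKM. All 5 si-Fndc1 libraries lay inside the si-Control range, whose lower end is si-Control replicate 5 alone. The means were 9.68 ± 1.05 and 10.07 ± 0.278 FPKM (SD, n = 5), with a fold of 1.04 and an interval of 0.942 to 1.16 (log2 fold change 0.06, SE 0.07, adjusted p = 0.508, edgeR; corrected 0.10, adjusted p = 0.313). Without si-Control replicate 5 the difference in mean FPKM turned to -0.0497 (exact permutation test, p = 0.841). Xkr8, a phospholipid scramblase gene on the opposite strand 131 bases beyond Eya3, fell (log2 fold change -0.22, SE 0.08, adjusted p = 0.0485), and that call was lost with the correction (-0.19, adjusted p = 0.107) and in 9 of the 10 fits that left out 1 library.

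Eya4, a family member known from hearing and heart, was second in abundance and had the widest spread. It lies on the minus strand of chr10:22978862-23226684. Its si-Control levels in replicates 1 to 5 were 5.45, 4.90, 7.31, 4.98 and 7.32 FPKM. In si-Fndc1 they were 6.57, 9.21, 5.25, 8.74 and 6.02 FPKM. Replicates 2 and 4 of si-Fndc1 were above every si-Control library, while the other 3 lay within the si-Control range. The means were 5.99 ± 1.23 and 7.16 ± 1.74 FPKM (SD, n = 5), and the interval of the fold ran from 0.915 to 1.58 around 1.20 (log2 fold change 0.26, SE 0.18, adjusted p = 0.280, edgeR; corrected 0.17, adjusted p = 0.533). The SD of its log2 CPM, scaled by TMM, within groups was larger than that of 83.0% of the tested genes, and for Six4 the share was 22.8%. Behind each Eya4 value stood 3541 to 7056 counts per library.

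Eya1, which is needed with Six-family genes in early muscle, kidney and ear, lies on the minus strand of chr1:14239182-14380459. Its si-Control levels in replicates 1 to 5 were 1.05, 1.06, 1.36, 1.13 and 1.52 FPKM. In si-Fndc1 they were 1.16, 1.34, 1.12, 1.48 and 1.09 FPKM. The groups overlapped throughout, with means of 1.22 ± 0.205 and 1.24 ± 0.169 FPKM (SD, n = 5). The fold was 1.02 with an interval of 0.839 to 1.23 (log2 fold change 0.03, SE 0.13, adjusted p = 0.894, edgeR), and the sign turned with the correction (-0.00, adjusted p = 0.987).

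The same libraries were high in Eya1 and in Eya4. In si-Control replicates 3 and 5 and si-Fndc1 replicates 2 and 4, Eya1 was at 11.8 to 13.2 CPM and Eya4 at 76.3 to 97.0 CPM. In the other 6 libraries Eya1 was at 9.17 to 10.1 CPM and Eya4 at 51.3 to 68.6 CPM. The libraries were split at the widest gap in Eya1, so its ranges were apart by that choice. The ranges of Eya4 were apart too. Each group contributed 2 of the 4 higher libraries. Over all 10 libraries r was 0.843 (permutation p = 0.00358, adjusted 0.0537 over the 15 pairs of members) and rho 0.818 (p = 0.00625, adjusted 0.0938), so the relation did not pass the adjustment. Without the 2 libraries farthest from the median of Eya1 r was 0.860, and it was 0.915 within si-Control and 0.894 within si-Fndc1. Other genes were closer to each: by r over the 10 libraries, Eya1 ranked 7 of 13547 genes for Eya4. Eya4 ranked 3 of 13547 for Eya1.

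**Figure D2:**
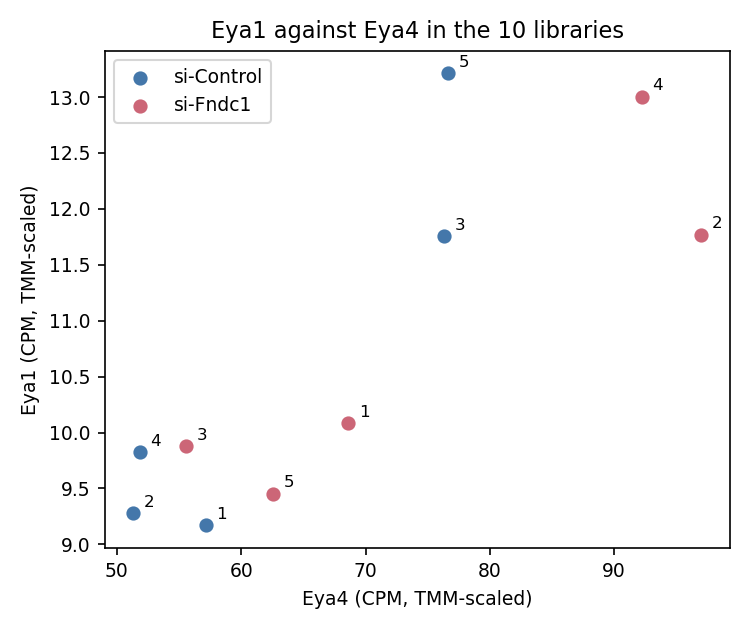
Eya1 (vertical axis) against Eya4 (horizontal axis), both in TMM-scaled CPM, with 1 point per library, coloured by group and numbered by replicate. The 4 libraries with Eya1 at 11.8 CPM or more are also the 4 with Eya4 at 76.3 CPM or more, 2 from each group.

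Among all 15 pairs of the 6 measured members, computed on log2 CPM over the 10 libraries, 3 had an unadjusted permutation p under 0.05 by Pearson's r and 2 by Spearman's rho, and 0 passed after Benjamini-Hochberg adjustment over the 15. Eya1 and Eya4 were 1 of the 3. Six4 and Eya3 had r = 0.747 (permutation p = 0.0183, adjusted 0.112) and rho = 0.648 (p = 0.0495, adjusted 0.334), but r was 0.122 without the 2 libraries farthest from the median of Six4, so that relation rests on them. Eya1 and Eya3 had r = -0.633 (permutation p = 0.0224, adjusted 0.112) and rho = -0.612 (p = 0.0667, adjusted 0.334), and r was -0.225 without the 2 farthest libraries. Within si-Control and within si-Fndc1, r was -0.755 and -0.923 for Eya1 and Eya3. For Six4 and Eya3 it was 0.894 and 0.420.

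Eya2, the remaining Eya gene, had 6 counts in si-Fndc1 replicate 4 and 0 in the other 9 libraries. It is listed at chr2:165436952-165613647. Eya3 therefore made up 57.4 ± 6.77% of the summed Eya FPKM in si-Control and 54.9 ± 6.18% in si-Fndc1. Eya4 made up 35.3 ± 5.80% and 38.3 ± 5.92%, and Eya1 7.24 ± 1.08% and 6.70 ± 0.453% (SD, n = 5). The summed Eya level was 16.9 ± 1.16 FPKM in si-Control and 18.5 ± 1.64 FPKM in si-Fndc1, with ranges of 15.5 to 18.7 and 16.7 to 20.4 FPKM that overlap.

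Pax7, the satellite cell factor, was measured at a low level. It lies on the minus strand of chr4:139464373-139560839. Its si-Control levels in replicates 1 to 5 were 0.946, 0.813, 0.760, 0.884 and 1.04 FPKM. In si-Fndc1 they were 0.984, 0.707, 0.680, 0.641 and 0.858 FPKM. Replicates 2, 3 and 4 of si-Fndc1 were below every si-Control library, and replicates 1 and 5 lay within the si-Control range. The means were 0.889 ± 0.111 and 0.774 ± 0.143 FPKM (SD, n = 5; exact permutation test, p = 0.191), and without si-Fndc1 replicate 1 the exact p was 0.0476. The fold was 0.876 with an interval of 0.713 to 1.08 (log2 fold change -0.19, SE 0.13, adjusted p = 0.301, edgeR; corrected -0.03, adjusted p = 0.898). Counts were 302 to 470 per library. Pax3, its relative at chr1:78077904-78173771, had 4 counts in si-Control replicate 1 and 0 in the other 9 libraries.

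**Figure D3:**
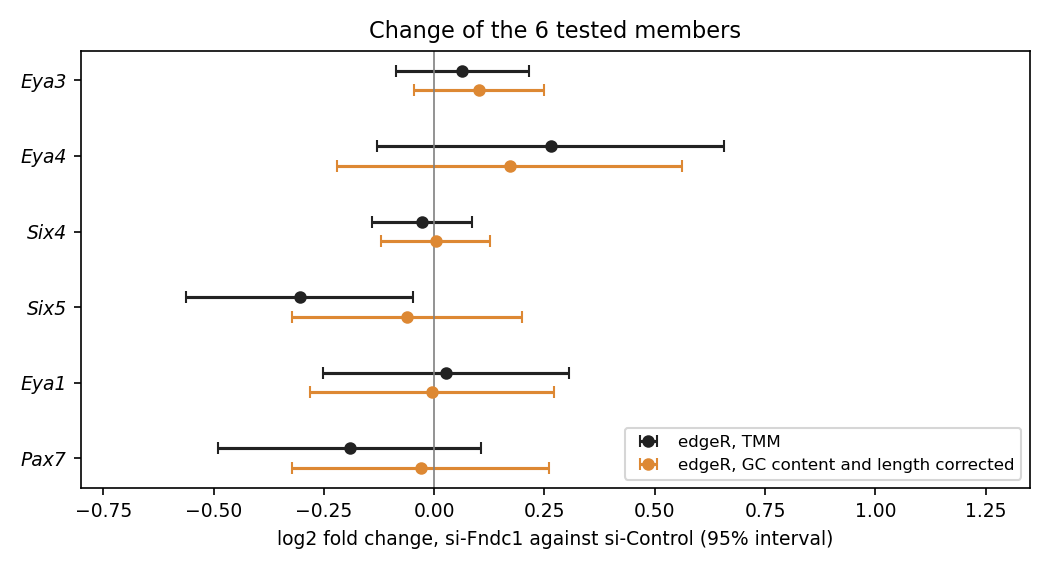
The log2 fold change of si-Fndc1 against si-Control (horizontal axis) with its 95% interval for the 6 measured members, by edgeR with TMM (black) and by edgeR with a correction for GC content and length (orange). The interval of Six5 lies below 0 before the correction and includes 0 after it, and the other 5 include 0 in both.

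The order of the mean FPKM was the same in both groups: Eya3, Eya4, Six4, Six5, Eya1 and Pax7. In si-Control the ranges of neighbours in that order did not overlap. In si-Fndc1 only Six5 and Eya1 overlapped. Of 9 further Pax and Six-family genes examined, all were below the minimum level and 3 had 0 counts in every library. Pax5, a B cell factor, was the highest of these 9 with a mean of 0.226 FPKM. Among the cofactors Dach1 was at 0.0628 FPKM or less and Dach2 had 0 counts. Sobp went from 1.67 ± 0.122 to 1.47 ± 0.153 FPKM (SD, n = 5; log2 fold change -0.18, adjusted p = 0.119, edgeR; corrected -0.00).

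For the most abundant member of each family, the 3 tested genes nearest in pattern were found by Pearson's r of log2 CPM over the 10 libraries, as a description. For Six4 they were Pccb (0.854), Ciart (0.848) and Ndufv1 (0.847), with r of 0.830, 0.549 and 0.924 without the 2 libraries farthest in Six4. For Eya3 they were Sel1l (0.960), Gm15265 (0.952) and Slc9a8 (0.941), which fell to 0.400, 0.716 and 0.444 on the same step. For Pax7 they were Rab23 (0.934), Slc7a7 (0.928) and Trub1 (0.926), which stood at 0.953, 0.948 and 0.870. All points share their library, and the nearest of 13547 genes are high by selection.

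Of the 9 genes described as targets of Six-family factors in muscle, all 9 were tested, 4 rose, 1 fell and 4 did not pass, with a median log2 fold change of 0.12 against 0.00 over all genes. Over all tested genes 17.3% rose and 17.2% fell. Once GC content and length were corrected for, 3 rose and 2 fell, with a median of -0.11, while 22.7% of all genes were called. Without si-Control replicate 1 or 5, or si-Fndc1 replicate 1, 3 or 5, the calls on the list went from 5 to 3. The calls on the list were thus not the same in both fits.

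Among the myogenic regulators of that list, Myod1 rose from 41.9 ± 0.896 to 46.7 ± 2.83 FPKM (SD, n = 5), or by 0.16 on the log2 scale (edgeR adjusted p = 0.0162; corrected 0.24, adjusted p = 0.00146), with no overlap between groups. By limma, on the log2(FPKM + 1) scale, its change was 0.10 (adjusted p = 0.146) and did not pass. Myog, the factor of terminal differentiation, was at 253.5 ± 10.9 and 232.7 ± 18.4 FPKM, and its difference of -0.12 on the log2 scale (adjusted p = 0.137) passed after the correction (-0.18, adjusted p = 0.0217), by limma (-0.26, adjusted p = 0.00378) and without si-Fndc1 replicate 4 (-0.16, adjusted p = 0.0229). Myf5, the earliest of these factors, was at 8.74 ± 0.296 and 9.43 ± 0.833 FPKM. Its log2 fold change was 0.12 (adjusted p = 0.181) and turned to -0.22 (adjusted p = 0.0153) with the correction, so its direction differed between the fits.

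Among the contractile and metabolic targets, Tnni2, the fast troponin I, rose from 226.7 ± 14.6 to 340.9 ± 49.9 FPKM (SD, n = 5; log2 fold change 0.60, adjusted p = 0.000677, edgeR; corrected 0.58), and all 5 si-Fndc1 libraries were above every si-Control library. Its call held in all 20 alternative fits. Eno3, the muscle enolase, rose by 0.22 on the log2 scale (adjusted p = 0.0160), but the corrected value of 0.17 (adjusted p = 0.116) and the limma value of 0.08 (adjusted p = 0.446) did not pass. Aldoa, an aldolase, rose by 0.10 on the log2 scale (adjusted p = 0.04996; corrected 0.22, adjusted p = 0.00142), but this call was lost in 8 of the 10 fits without 1 library, and limma gave -0.04. Tnnt3, the fast troponin T, and Pvalb, a calcium buffer, had log2 fold changes of -0.05 and 0.14 (adjusted p = 0.557 and 0.209), and the corrected values were -0.14 and -0.11 (adjusted p = 0.137 and 0.305). By limma Tnnt3 was at -0.30 (adjusted p = 0.0250).

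Atp2a1, the fast calcium pump of the sarcoplasmic reticulum, fell from 132.5 ± 13.2 to 110.7 ± 12.4 FPKM (SD, n = 5; log2 fold change -0.25, adjusted p = 0.0477, edgeR). The corrected value was -0.15 (adjusted p = 0.269), and the call was lost in 8 of the 10 fits without 1 library.

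**Figure D4:**
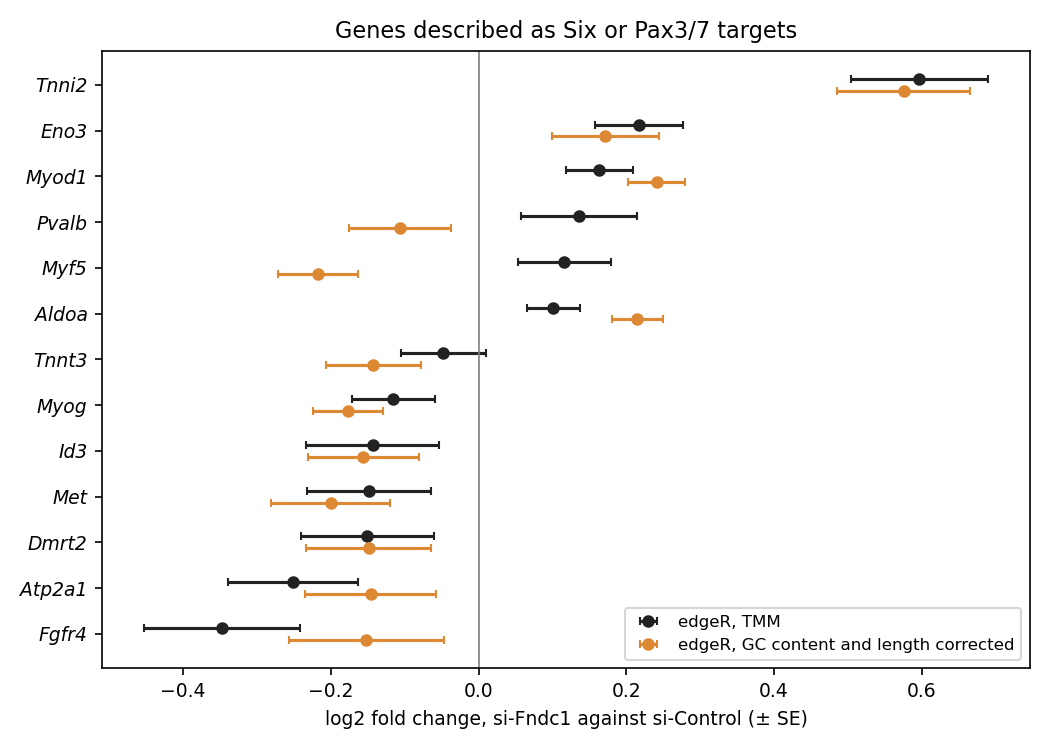
The log2 fold change of si-Fndc1 against si-Control (horizontal axis, bars are SE) for the 13 tested genes of the Six-family and Pax target lists, by edgeR with TMM (black) and with the correction for GC content and length (orange). Tnni2 stands highest in both fits, at 0.60 and 0.58, and Myf5 and Pvalb change sign between them.

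Of the 8 genes described as targets of Pax3 or Pax7, 6 were tested, 1 rose (Myod1) and 1 fell (Fgfr4), with a median log2 fold change of -0.15. These counts stand against 17.3% and 17.2% of all tested genes. Fgfr4, a fibroblast growth factor receptor of muscle progenitors, went from 1.20 ± 0.164 to 0.939 ± 0.0420 FPKM (SD, n = 5; log2 fold change -0.35, adjusted p = 0.0263, edgeR) with no overlap between groups. Its corrected value was -0.15 (adjusted p = 0.337), and without si-Control replicate 2 or 5, or si-Fndc1 replicate 2, 3 or 4, its adjusted p rose above the threshold, to at most 0.0577. After the correction the calls were 1 up (Myod1) and 1 down (Myf5), against 11.3% and 11.4% of all genes. Met, the receptor of migrating progenitors, Dmrt2 and Id3 had log2 fold changes of -0.15, -0.15 and -0.14 (adjusted p = 0.201, 0.225 and 0.248), and corrected values of -0.20, -0.15 and -0.16 (adjusted p = 0.101, 0.237 and 0.165). Lbx1 and Itm2a were below the minimum, with Lbx1 at 0.332 to 0.616 FPKM per library and Itm2a at 0.350 FPKM or less.

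The markers of satellite cells, the cells in which Pax7 is best known, were examined beside it. Of 12 satellite cell markers 10 were tested, 0 rose and 6 fell (Spry1, Sdc3, Itga7, Cdh15, Heyl and Notch3), with a median log2 fold change of -0.21, while 17.3% of all tested genes rose and 17.2% fell. Their summed level was 371.2 to 403.9 FPKM in si-Control and 315.1 to 359.6 FPKM in si-Fndc1. Most of that sum came from Itga7 (means of 188.6 FPKM in si-Control and 164.3 in si-Fndc1) and Cdh15 (111.2 and 97.9). With GC content and length corrected for, the log2 fold changes of Itga7 and Cdh15 were 0.07 and 0.03 (edgeR adjusted p = 0.228 and 0.543). Notch3, a receptor of the Notch pathway, fell from 22.4 ± 0.895 to 15.1 ± 0.286 FPKM (SD, n = 5; log2 fold change -0.56, edgeR adjusted p = 5.57e-06; corrected -0.25). After the correction 2 of the 10 fell, Sdc3 and Notch3, and the median was -0.10, while 11.4% of all genes fell. Calcr, which defines quiescent satellite cells, was at 0 counts in all libraries and Chrdl2 was at 0.00483 FPKM or less. Fewer cells of a type and less RNA per cell cannot be told apart in these bulk samples. Of 6 neural crest markers, the other lineage in which Pax3 acts, 1 was tested (Mitf) and 0 were called (edgeR adjusted p = 0.324).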

How the data were processed

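C2C12 RNA-seq libraries were grouped by their labels into si-Control and si-Fndc1 (n = 5 each). The deposited table gives raw counts per gene and FPKM per library. Per the labels, the authors' processing notes name cutadapt 1.9, FastQC and build GRCm39, while the methods name TopHat, mm10 and htseq-count and the series text STAR and mm9. The GRCm38.p6 promoter windows of Six4 and Myog lie away from the listed positions of these genes, so the listed coordinates are not in mm10. Which other build they follow is unsettled, and they are printed as listed. Whether counting used strand is not given in the sources used here. The methods name fewer libraries than were deposited, and all 10 were used. FPKM is per length, so only FPKM was compared between genes; genes without a count are listed at 0.0001 FPKM and taken as 0.

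Counts were tested with edgeR 4.0.16 in R 4.3.3 (TMM, quasi-likelihood test, a minimum mean FPKM of 0.5, Benjamini-Hochberg over 13548 genes, threshold 0.05). The minimum removed 3 members. Levels were compared by two-sided exact permutation of FPKM. Correlations used 100000 permutations. The correction for GC content and length used splines of both over 11185 genes that had them (82.6%). Alternatives were DESeq2 1.42.0, limma 3.58.1 on quantile-normalized log2(FPKM + 1), other size factors and filters, a replicate block and leaving out each library. Scripts were tested on simulated counts. Counts of different libraries differed beyond sampling noise (41.3 to 77.1 times the degrees of freedom in a chi-square test, 20 pairs), so no library was counted as a copy.

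Named genes were the members, genes within 5000 bases of them, the cofactors, every gene of the target lists, other numbered genes of the families, and the 3 genes nearest in pattern to the most abundant member of each family; markers named by call in the marker lists were chosen after their values were seen. The members and lists were chosen with earlier results of these data known. Some genes of these families and lists are not reported here.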

Additional observations from a re-analysis of the deposited data

How the results depend on the processing

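Over 20 alternative fits of the edgeR comparison (19 for Pax7, which a minimum of 1 FPKM removed), Eya3, Eya4 and Pax7 kept their direction and 0 of these 3 passed an adjusted p of 0.05. The genes called went from 4663 to 2538 with the correction for GC content and length and to 1647 with that correction and the replicate block, and to between 4000 and 4627 without 1 library. The same 11185 genes without the correction gave 4244 calls, an alternative chosen after seeing the data. The members called were 1 by DESeq2 and by limma and 0 to 1 without 1 library, in each case Six5. Its log2 fold change was -0.31 by DESeq2, -0.22 by limma and -0.36 to -0.24 without 1 library. That of Six4 turned to 0.00 with the correction (0.0038, and 0.0061 with the replicate block too) and lay between -0.0643 and 0.0042 without 1 library. That of Eya1 turned to -0.0040 with the correction and to -0.0145 by limma, and lay between -0.05 and 0.12 without 1 library. On mean FPKM, the differences without 1 library were -0.493 to -0.323 for Six5, where exact p reached 0.0952 in 6 of 10, -0.0459 to 0.0890 for Eya1, -0.0497 to 0.589 for Eya3 and -0.167 to -0.0767 for Pax7. Myf5 turned to -0.22 with the correction, with and without the replicate block. Its edgeR adjusted p was 0.0153 without the block and 0.0623 with it, and Myf5 passed in 1 of the 20 alternative fits. Pvalb turned to -0.11 with the correction, with and without the block, and Aldoa to -0.042 by limma. Of the Six-family targets, 3 were called with no filter and with filterByExpr, and 3 to 4 without 1 library. Of the Pax targets, 1 was called with no filter, by limma and with the correction and the replicate block, and 1 to 2 without 1 library.

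Same-numbered libraries did not deviate together from their group means (correlations 0.0161, -0.0381, 0.0572, -0.0316 and -0.0545 for replicates 1 to 5). The labels do not say whether the numbers pair the samples, and correlations near 0 cannot exclude a pairing. With the replicate block 3572 genes were called, with 1 of the Six-family targets (Tnni2) and 0 of the Pax targets among them. The cause of these differences was not tested. By design, leaving out a library leaves fewer samples, and the replicate block leaves fewer degrees of freedom. Depth limits Six2, Eya2 and Pax3, whose counts of 4 to 6 in 1 library each give no comparison.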
